A study of Mus musculus with 2 samples.

Results

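The miR-379 to miR-410 cluster is a row of miRNA hairpins in the imprinted Dlk1-Dio3 region of mouse chromosome 12. Its members here were all mature arms in the count table whose names belong to a fixed list of 37 hairpins of the cluster, and 71 of the 1358 miRNAs measured met that rule, from 36 hairpins. No row for miR-654 was analysed here. The tissue was whole retina from mice of the outbred CD-1 stock, wild-type and untreated as far as the labels go, on postnatal day 0, the day of birth. Small RNA of 18 to 30 nt was sequenced in 2 libraries of this single group, replicate 1 and replicate 2, so the design compares no treatments or genotypes. The labels do not say whether the replicates are separate animals or litters, and the spread between them may be technical. The age and strain are the same in both, and imprinting itself cannot be read from these values because alleles were not separated.

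Imprinted genes are read from the copy of 1 parent only, and the miRNAs of this region are made from the maternal copy as parts of long noncoding transcripts. Each hairpin is cut into a 5p and a 3p arm, of which usually 1 is kept in the silencing complex, and bases 2 to 8 of the kept arm, its seed, pair with target mRNAs. In neurons the cluster is known as a set of activity-regulated miRNAs, and its member miR-134 is known for restraining the size of dendritic spines through the kinase Limk1. Its role in the newborn retina is less described, and the values below are measurements of abundance only.

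On GRCm38 the 36 hairpins lay within 34.7 kb (chr12:109709060-109743795), 35 of them on the plus strand and miR-299b on the minus strand, opposite miR-299a. The mature sequences below are those of the 9 most abundant members, which together held 90.1% ± 0.786 of the counts of the cluster (SD, n = 2). They are shown because they carry nearly all of the signal. They were taken from RefSeq (GRCm38.p6, plus strand), which matched 67 of the 71 members by name and had no match for miR-376c-3p, miR-485-5p, miR-487b-3p and miR-539-3p. Capitals mark the seed.
miR-541-5p: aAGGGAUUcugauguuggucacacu
miR-381-3p: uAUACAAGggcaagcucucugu
miR-379-5p: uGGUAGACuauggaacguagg
miR-543-3p: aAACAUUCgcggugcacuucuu
miR-382-5p: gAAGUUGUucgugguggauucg
miR-300-3p: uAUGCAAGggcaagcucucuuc
miR-411-5p: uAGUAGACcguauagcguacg
miR-409-3p: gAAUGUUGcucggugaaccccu
miR-134-5p: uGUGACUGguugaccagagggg

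These 9 members had 9 different seeds. The 67 matched members had 62 different seeds, and only 5 seeds were shared by 2 members each. The most abundant shared seed joined miR-379-5p to miR-1193-5p, the latter at 3.46 ± 0.0205 CPM. The other pairs were miR-411-3p with miR-379-3p, miR-299a-3p with miR-299b-3p, miR-376b-5p with miR-376c-5p, and miR-410-5p with miR-494-5p. A further 9 seeds were shared with miRNAs outside the cluster, and in 4 of those cases the outside miRNA had the higher mean level. These were miR-672-5p (467 CPM) with miR-377-5p (2.01 CPM), miR-1983 (148 CPM) with miR-412-3p (2.43 CPM), miR-362-3p (9.18 CPM) with miR-329-3p (3.03 CPM) and miR-3620-5p (2.72 CPM) with miR-134-3p (0.843 CPM). All of these are seeds of the reference entries, and the most frequent reads can carry others. The most frequent miR-412-3p read began 1 base earlier in both libraries, with a seed other than that of miR-1983. That of miR-494-5p, on 2 counts in replicate 1 and 0 in replicate 2, began 3 bases earlier, off the seed of miR-410-5p. That of miR-1193-5p began at the reference start in replicate 1 and 1 base earlier in replicate 2.

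The count table summed to 8337902.5 in replicate 1 and 8118207.8 in replicate 2, and levels are given as CPM, the count per 1000000 of this total. At this depth a member with no count could lie anywhere below 0.36 CPM (replicate 1) or 0.37 CPM (replicate 2). Ligation yield differs between RNA sequences, so a ratio of 2 members holds that yield as well as their amounts. The markers fixed for neural retina summed to 398217 and 419768 CPM, and all 5 were detected. Those of pigment epithelium and lens summed to 4528 and 3869 CPM. Most of that sum was miR-204-5p (mean 3389 CPM), with miR-184-3p at 804 CPM and miR-211-5p at 5.62 CPM. Markers of vessels summed to 1027 and 906 CPM, of surface epithelium to 125 and 123 CPM with miR-205-5p at 0. Those of blood summed to 63.7 and 65.6 CPM with miR-223-3p at 0. Skeletal muscle markers summed to 88.7 and 92.0 CPM, and their cells' part in the levels of the cluster was not tested. In whole tissue, fewer cells of a type and less RNA per cell cannot be told apart.

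The cluster was broadly present in the newborn retina but dominated by few members. Together the 71 arms held 1.53% ± 0.107 of the counts (SD, n = 2), with 1.60% in replicate 1 and 1.45% in replicate 2. Both libraries detected 63 of the 71 (88.7%), compared with 68.0% of all 1358 miRNAs. The median member was at 6.06 CPM, against 0.73 CPM for the median of all miRNAs. At least 10 CPM was reached by 32 members (45.1%, against 26.9% of all miRNAs), 100 CPM by 13 (18.3% against 13.3%) and 1000 CPM by 6 (8.45% against 5.45%). These shares are a description, and no test was made of them.

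miR-541-5p was the most abundant member, at 4121 CPM in replicate 1 and 3782 CPM in replicate 2, and took rank 29 of all miRNAs. It alone held 25.9% ± 0.252 of the counts of the cluster. miR-381-3p followed at 2498 and 2798 CPM, and miR-379-5p, the arm after which the cluster is named, at 1787 and 1663 CPM. The values of these 3 members did not overlap between members in any library. miR-541-5p exceeded miR-381-3p by 1.49-fold (log2 ratio 0.58 ± 0.20, SD, n = 2), and miR-381-3p exceeded miR-379-5p by 1.53-fold (0.62 ± 0.19). Both differences were larger than 2 SD and than the exact binomial 95% intervals of the counts.

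The next members lay close together around 1000 CPM. miR-543-3p, which is known for limiting N-cadherin in neurogenesis, was at 1381 and 917 CPM. miR-382-5p was at 1174 and 1003 CPM, and miR-300-3p at 1034 and 984 CPM. The order of miR-543-3p, miR-382-5p and miR-300-3p could not be told within the spread of the libraries, and neither could that of miR-379-5p and miR-543-3p (log2 ratio 0.62 ± 0.35). miR-411-5p (871 and 707 CPM) lay below miR-300-3p by 1.29-fold and above miR-409-3p (746 and 650 CPM) by 1.13-fold, both beyond the spread. The dendritic spine regulator miR-134-5p, at 729 and 641 CPM, could not be ranked against miR-409-3p.

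A gap followed. miR-134-5p exceeded the tenth member, miR-323-3p (271 and 238 CPM), by 2.69-fold (log2 ratio 1.43 ± 0.0013). miR-495-3p was at 249 and 173 CPM and overlapped miR-323-3p. miR-369-5p was at 204 and 145 CPM, and miR-411-3p closed the group above 100 CPM at 160 and 111 CPM. Among the 12 neighbouring pairs of these 13 members, 7 differed beyond the spread and 5 did not. The requirement that counting intervals be apart was added after the values were seen, and without it 8 pairs would count, the additional one being miR-409-3p over miR-134-5p at 1.02-fold. An SD of 2 libraries is imprecise, so a ratio just over 2 SD is weak evidence of an order.

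**Figure D1:**
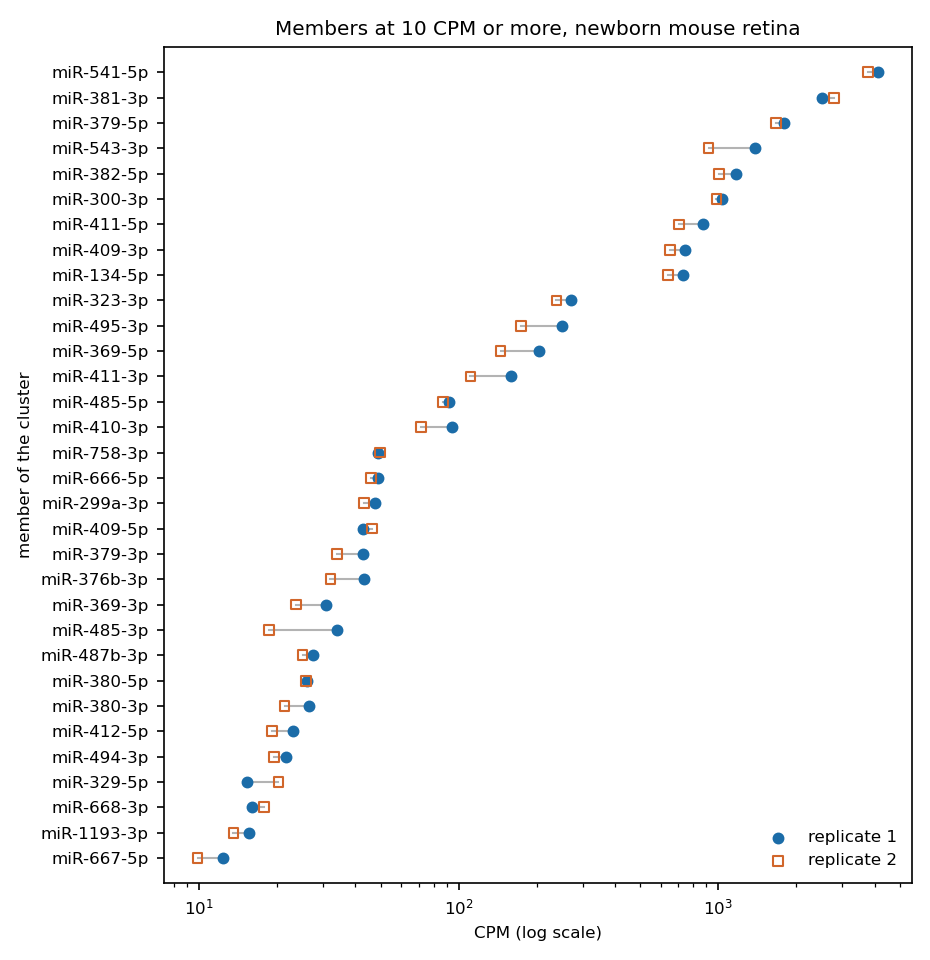
Levels of the 32 members at 10 CPM or more, 1 row per member. The x axis is CPM on a log scale, filled circles are replicate 1 and open squares replicate 2. miR-541-5p lies highest at 4121 and 3782 CPM, and a gap separates miR-134-5p (729 and 641 CPM) from miR-323-3p (271 and 238 CPM).

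Below 100 CPM the members thinned out gradually. Ranks 14 to 20 were held by miR-485-5p (91.9 and 87.0 CPM), known for a part in synaptic scaling, miR-410-3p (94.4 and 71.4 CPM), miR-758-3p (48.8 and 49.6 CPM), miR-666-5p (49.1 and 45.9 CPM), miR-299a-3p (47.6 and 43.2 CPM), miR-409-5p (42.7 and 46.2 CPM) and miR-379-3p (42.8 and 34.0 CPM). Of the whole set 52 members reached 1 CPM. 4 were detected in a single library, and 4 were at 0 in both: miR-376c-5p, miR-299b-5p, miR-495-5p and miR-496a-5p. miR-299b-5p nevertheless had an entry in the deposited table of most frequent reads, with a different read in each library. Because miR-299a and miR-299b overlap on opposite strands and the 18 bases of miR-299b-3p are the first 18 of miR-299a-3p, the 23 and 19 counts of miR-299b-3p are uncertain.

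Some members were near copies of each other, and their levels still differed. Counting positions from 1 at the 5′ end, with the first-named member's base first, miR-381-3p and miR-300-3p differ by A4G, G21U and U22C. The first of these changes lies in the seed. miR-381-3p exceeded miR-300-3p by 2.62-fold (log2 ratio 1.39 ± 0.17, SD, n = 2). miR-543-3p and miR-495-3p differ by U6A, U7A, G9A and C10U, and the former exceeded the latter by 5.41-fold (2.44 ± 0.047). miR-376b-3p and miR-376a-3p differ by A4G, C13A and U20G, and the former exceeded the latter by 17.2-fold (4.11 ± 0.049). That ratio rests on only 20 and 15 counts of miR-376a-3p (2.12 CPM). The most frequent miR-376a-3p read had 18 nt in both libraries, 3 bases short of the reference and at the minimum length sequenced. These pairs were chosen after their values were seen. For them the count table held whole numbers in both libraries.

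miR-411-3p and miR-379-3p were the 2 members with counts that were not whole. This held in replicate 1 only, at 1330.5 and 356.5, while replicate 2 had 900 and 276. The 2 arms differ by C10U and C22U only, share a seed, and are printed to show how few bases tell their reads apart.
miR-411-3p: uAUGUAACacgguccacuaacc
miR-379-3p: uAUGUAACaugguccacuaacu

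miR-411-3p exceeded miR-379-3p by 3.48-fold (log2 ratio 1.80 ± 0.14). The 2 arms together held 1.1% of the counts of the cluster, so their uncertainty bears little on its sum.

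A stretch common to both, GGUCCAC, recurred in the cluster. It was found in 5 of 67 members (7.46%), all of them 3p arms: miR-411-3p, miR-758-3p, miR-379-3p, miR-380-3p and miR-412-3p. It was in 5 of all 1152 miRNAs with a sequence (0.434%), which are these same 5. The stretch CACGG was in 6 members (8.96%), again all 3p arms, among them miR-323-3p, miR-494-3p and miR-154-3p, and in 17 of all 1152 (1.48%). miR-411-3p holds both. GGUUG was in 10 members (14.9%), 8 of them 5p arms, such as miR-134-5p and miR-380-5p, and in 42 of all 1152 (3.65%). Only the strand of the mature RNA was searched, and the 3 stretches were chosen after the sequences had been read. Members were also poorer in G and C, with a median of 47.4% against 52.2% of all miRNAs. In hairpins with a 4-fold ratio of arms, the higher arms had medians of 47.6% in members and 49.0% in all. The lower arms of those hairpins had 46.5% and 53.8%.

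Arm choice in the cluster was usually one-sided but not uniform in direction. The hairpins with both arms listed numbered 35, and 33 of them met the minimum for a comparison, a summed count of 10 from both arms in every library. miR-496a and miR-544 fell below it. In an exact binomial test of equal arm counts in each library, adjusted by Benjamini-Hochberg over all 312 hairpins of the table, the 3p arm was called higher in 16 of the 33 and the 5p arm in 12. Over all hairpins the corresponding shares were 43.3% and 46.2%. Dominance of 1 arm, by 4-fold or more in replicate 1 and in replicate 2, was found for the 3p arm in 15 member hairpins (45.5%, against 36.9% of all hairpins) and for the 5p arm in 11 (33.3%, against 40.4%). The median share of the 3p arm was 60.5% in the member hairpins and 46.2% in all. The member median is the value of 1 hairpin, miR-679, whose 3p share was 76% and 45% on few counts and not called. Most member hairpins lay nearer an edge, so this median does not describe a typical hairpin. At 8-fold or more the 3p arm was dominant in 14 of the 33 (42.4%, against 31.1% of all hairpins). The 5p arm was dominant at that level in 5 (15.2%, against 32.4%). Those 14 include miR-376c, miR-299b and miR-1197, whose 5p arms were at 0 in replicate 1. Taking 3 counts as the limit of a count of 0, miR-376c and miR-299b were at least 6.33-fold in replicate 2. By the same limit miR-1197 was at least 6-fold in replicate 1. These limits are above 4-fold but do not show 8-fold. The difference between members and all hairpins was not tested.

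Arms of the abundant hairpins were nearly exclusive. The miR-381 hairpin gave 20826 and 22711 counts of the 3p arm against 2 and 1 of the 5p arm. The miR-541 hairpin gave 34361 and 30707 counts of the 5p arm against 8 and 1 of the 3p arm. miR-543 and miR-300 were as one-sided for the 3p arm, with 5p arms at 2 and 2 counts and at 3 and 4 counts. miR-495-5p was at 0, so miR-495-3p was at least 693-fold higher in replicate 1 and at least 469-fold higher in replicate 2, taking 3 counts per library as the limit of a count of 0. miR-382 and miR-134 kept the 5p arm, at 99.8% and 99.7% and at 99.8% and 99.96% of the counts.

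Other hairpins above 100 CPM left a measurable second arm. miR-379-5p took 97.7% and 98.0% of the counts of its hairpin, whereas miR-411-5p took 84.5% and 86.4%. The 3p arm took 94.6% and 93.4% in miR-409 and 96.8% and 97.3% in miR-323. In the miR-369 hairpin the 5p arm took 86.9% and 86.0% (log2 ratio of 5p over 3p 2.67 ± 0.086, adjusted p = 7.6e-262 and 2.86e-172 in the exact binomial test). miR-485 used the 5p arm in 73.0% of its counts in replicate 1 and 82.4% in replicate 2, a called difference (log2 ratio 1.83 ± 0.56) below 4-fold in replicate 1.

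The 5 most even hairpins at 10 CPM or more were miR-380, miR-485, miR-1193, miR-667 and miR-376a. The miR-380 hairpin stood apart, with the 3p arm at 50.3% in replicate 1 and 45.2% in replicate 2. Its arms were not called different (log2 ratio of 5p over 3p 0.13 ± 0.21, adjusted p = 0.933 and 0.0709 in the exact binomial test). miR-1193 favoured its 3p arm (81.8% and 79.7%), and miR-667 (80.5% and 81.6%) and miR-376a (82.1% and 82.4%) favoured their 5p arms, all called. Outside these, the arms of miR-154, miR-377, miR-679 and miR-539 were not called, each with fewer than 100 counts in a library.

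The 3 miR-376 hairpins, near copies side by side, did not all favour the same arm in these libraries. miR-376b gave 82.4% and 84.4% of its counts from the 3p arm and miR-376c had no count of its 5p arm, whereas miR-376a gave 82.1% and 82.4% from the 5p arm. Counts were low, at 34 and 19 for miR-376c-3p and 20 and 15 for miR-376a-3p. The most frequent miR-376a-3p read had 18 nt, the minimum length sequenced, so shorter forms of that arm would be missed. miR-376a and miR-376b are printed with the mature arms in capitals (RefSeq, GRCm38.p6, plus strand, chr12:109723781-109723848 and chr12:109723458-109723539), followed by the one-sided miR-381 (chr12:109726822-109726896) and the even miR-380 (chr12:109711803-109711863).
miR-376a: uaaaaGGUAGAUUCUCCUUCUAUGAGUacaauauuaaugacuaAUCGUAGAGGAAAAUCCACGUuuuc
miR-376b: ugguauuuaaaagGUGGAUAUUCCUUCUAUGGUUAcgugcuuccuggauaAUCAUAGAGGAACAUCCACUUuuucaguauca
miR-381: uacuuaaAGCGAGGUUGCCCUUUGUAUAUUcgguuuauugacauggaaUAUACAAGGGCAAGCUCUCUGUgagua
miR-380: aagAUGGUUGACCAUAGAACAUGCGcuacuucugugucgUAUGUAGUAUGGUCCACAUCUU

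**Figure D2:**
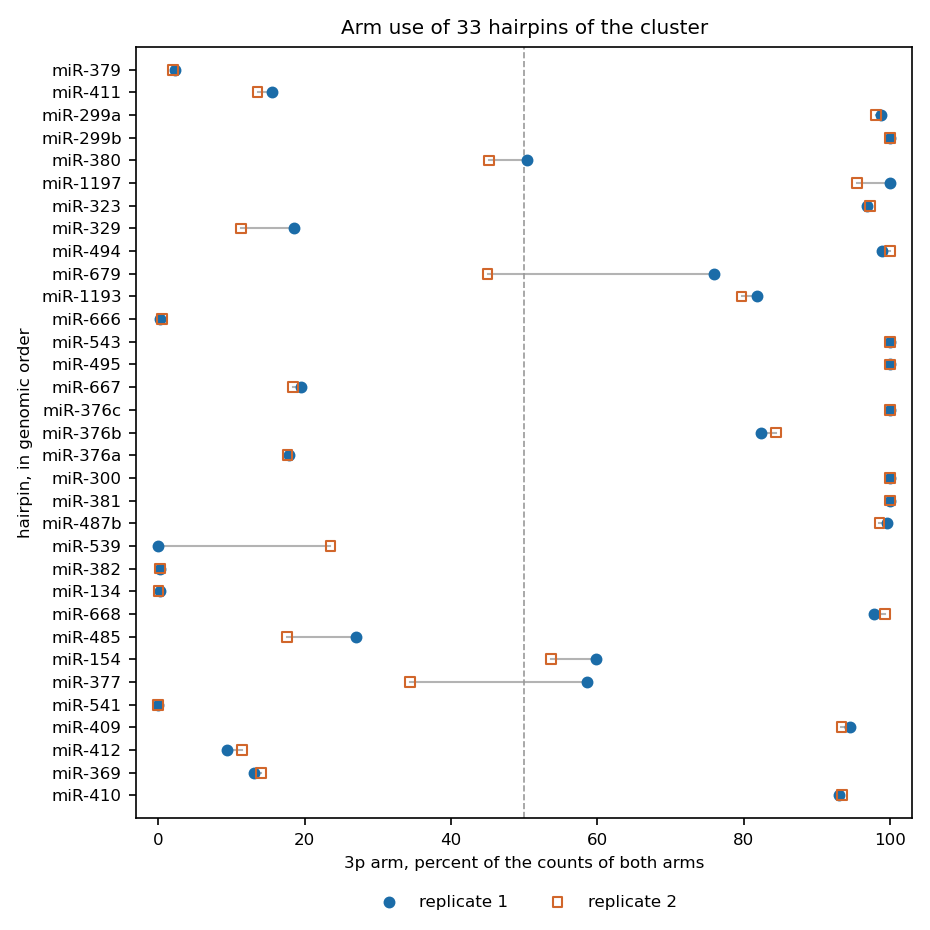
Arm use of the 33 member hairpins compared, in genomic order from top to bottom. The x axis is the share of the 3p arm in the counts of both arms in percent, filled circles are replicate 1, open squares replicate 2, and the dashed line marks equal arms. Most hairpins lie near an edge, while miR-380 lies at 50.3% and 45.2%. The wide pairs miR-679, miR-377 and miR-539 rest on few counts.

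The first base of an arm is known to bear on which strand the silencing complex keeps, with U and A favoured. Among all hairpins with a 4-fold ratio, U opened 49.0% of the dominant arms with a sequence and 23.9% of the minor arms. In the cluster U opened 11 of 24 dominant arms (45.8%) and 9 of 26 minor arms (34.6%), and A opened 8 and 9 of them. C, which opened 27.9% of all minor arms, opened 2 of the 26 minor arms of the cluster. All of these are first bases of the reference entries, and the reads can differ. Of minor arms with U in the reference, the most frequent reads of miR-541-3p and miR-382-3p began with A in both libraries. Those of miR-412-3p began with C and those of miR-487b-5p with G, all on few counts. The most frequent read of the dominant arm miR-299a-3p began with G. The shares therefore describe the entries, which are few and many of them related, and no test was made.

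High and low hairpins were interspersed along the cluster. Spearman's rho of the level of the higher arm with the position of the hairpin was 0.00026 over the 36 hairpins, which share the libraries and are related in sequence. Hairpins within a short distance differed by orders of magnitude. miR-381, at 17.8 kb from the start of the first hairpin, summed to 2648 ± 212 CPM over both arms, and miR-487b at 18.3 kb to 26.5 ± 1.56 CPM. miR-541 at 33.3 kb summed to 3952 CPM, while the hairpins before it, miR-496a at 30.1 kb and miR-377 at 31.5 kb, summed to 0.182 and 3.71 CPM. At the start of the cluster, miR-379 (1763 CPM) and miR-411 (924 CPM) were followed by miR-299a (46.2 CPM).

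In the GENCODE M21 annotation 12 hairpins, from miR-382 to miR-410, lay within Mirg, a long noncoding RNA gene that hosts miRNAs, 4 in exons and 8 in introns. The other 24 lay outside annotated transcripts other than their own. The 12 within Mirg held 45.4% of the mean level of the cluster and the 24 outside 54.6%. The median hairpin summed to 102 CPM within Mirg and 35.9 CPM outside, and 6 of 12 and 7 of 24 reached 100 CPM.

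**Figure D3:**
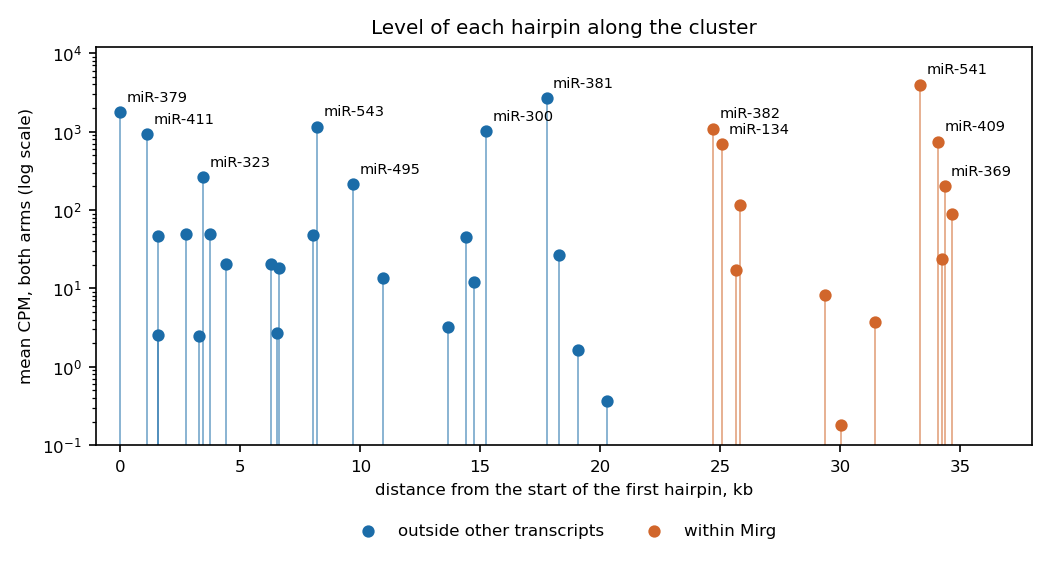
Level of each of the 36 hairpins along the cluster. The x axis is the distance from the start of the first hairpin in kb, the y axis the mean CPM of both libraries summed over both arms on a log scale, and colour marks whether the hairpin lies within Mirg. High and low hairpins are interspersed, and miR-381 (2648 CPM) and miR-541 (3952 CPM) each have a neighbour far lower, miR-487b (26.5 CPM) and miR-377 (3.71 CPM).

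The other miRNAs of the Dlk1-Dio3 region were fewer and held less of the counts. The 19 arms antisense to the retrotransposon-like gene Rtl1 held 0.465% and 0.385% of the counts, and the 15 arms scattered elsewhere in the region 0.297% and 0.265%. The cluster held 3.45 and 3.76 times the counts of the former and 5.39 and 5.47 times those of the latter. Its median arm, at 6.06 CPM, was below that of the Rtl1-antisense arms (28.4 CPM) and of the scattered arms (9.43 CPM). miR-370-3p (2549 and 2250 CPM) and miR-434-5p (2405 and 1908 CPM), the highest of those lists, lay between miR-541-5p and miR-379-5p. Both libraries detected 18 of the 19 Rtl1-antisense arms and 13 of the 15 scattered arms. A mean of 10 CPM was reached by 10 and 7 of them, so broad presence was not particular to the cluster within its region. No test was made of these sums, medians and counts.

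For the abundant members the most frequent read began where the reference entry begins, and shifted starts were found among the lower members. Among members at 10 CPM or more, replicate 1 and replicate 2 shared the most frequent read in 32 of 32 cases, against 92.9% of the 365 miRNAs at that level. The start was shifted in both libraries in 2 members (6.25%, against 9.32% of all), and in none of the 13 members at 100 CPM or more. With no minimum level, 10 of the 63 members detected in both libraries were shifted (15.9%, against 14.7% of all), on as few as 1 count in a library. None of the 32 carried a mismatch in both libraries, against 15 of the 365. Arms of the miR-376 family are known substrates of adenosine editing, but the deposited table gives the most frequent form alone, so rarer forms were not measured.

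The 2 shifted members at 10 CPM or more are printed as the reference and, below it, the most frequent read, with the seed of each in capitals (the deposited T written as U). miR-299a-3p (45.4 ± 3.10 CPM) began 1 base earlier and miR-485-3p (26.3 ± 10.9 CPM) 3 bases later than the reference.
miR-299a-3p reference: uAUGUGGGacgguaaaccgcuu
miR-299a-3p read: gUAUGUGGgacgguaaaccgcu
miR-485-3p reference: aGUCAUACacggcucuccucuc
miR-485-3p read: cAUACACGgcucuccucucuuc

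Neither read seed was the reference seed of another miRNA among the 1152 with a sequence. The shift moved miR-299a-3p off the seed it shares with miR-299b-3p in the reference. The most frequent read ran past the 3′ end of the reference in 7 of the 32 members (21.9%, against 20.5% of all). In these members the extra bases were those that follow in the hairpin sequence. The longest extension was the 4 bases of miR-758-3p, whose reference entry is short.
miR-758-3p reference: uUUGUGACcugguccacua
miR-758-3p read: uUUGUGACcugguccacuaaccc

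More members were lower than higher in replicate 2 relative to replicate 1. In an exact two-sided binomial test scaled by the table totals, adjusted over all 710 miRNAs with at least 10 counts, 18 of the 54 members tested were lower in replicate 2 and 1 was higher. Over all miRNAs tested 19.6% were lower and 8.31% higher. The median log2 ratio of replicate 2 over replicate 1 was -0.23 for the members and -0.12 for all miRNAs. The tilt was not particular to the cluster within its region. The Rtl1-antisense arms summed to 0.465% and 0.385% of the counts in replicates 1 and 2, and the scattered Dlk1-Dio3 arms to 0.297% and 0.265%. TMM scaling, which moved the median of all miRNAs to -0.0037, left a median of -0.11 for the members, 11 lower and 2 higher, against 11.3% and 15.1% of all miRNAs. This compares libraries, not conditions, with p-values that cover counting error only, and the members share hairpin neighbours and libraries. How many animals lie behind each library is not given, and its part in these differences was not tested.

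The largest differences at 10 CPM or more were those of miR-485-3p (34.1 and 18.6 CPM, log2 ratio -0.87), miR-543-3p (1381 and 917 CPM, -0.59), miR-495-3p (249 and 173 CPM, -0.53), miR-411-3p (160 and 111 CPM, -0.52) and miR-369-5p (204 and 145 CPM, -0.50). All 5 were called, also under TMM and DESeq2 scaling, with a largest adjusted p = 6.78e-09 by table totals (exact binomial test). The near copies miR-543-3p and miR-495-3p moved by similar amounts. Another near-copy pair, miR-381-3p and miR-300-3p, did not, with log2 ratios of 0.16 and -0.072 by table totals. The other arm of the miR-485 hairpin, miR-485-5p, was not called (91.9 and 87.0 CPM, log2 ratio -0.079, exact binomial test, adjusted p = 0.52).

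In the other direction, miR-381-3p was at 2498 and 2798 CPM and was called higher in replicate 2 (log2 ratio 0.16, adjusted p = 5.09e-31, exact binomial test). miR-329-5p (15.2 and 20.2 CPM, log2 ratio 0.41) was called only under TMM and DESeq2 scaling (adjusted p = 0.0104 and 0.0118). miR-668-3p, miR-409-5p and miR-758-3p had log2 ratios of 0.15, 0.11 and 0.024 and were not called under any of the 3 scalings. miR-541-5p (-0.12), miR-379-5p (-0.10) and miR-300-3p (-0.072) were called lower by table totals, and none of these 3 was called under TMM or DESeq2 scaling.

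**Figure D4:**
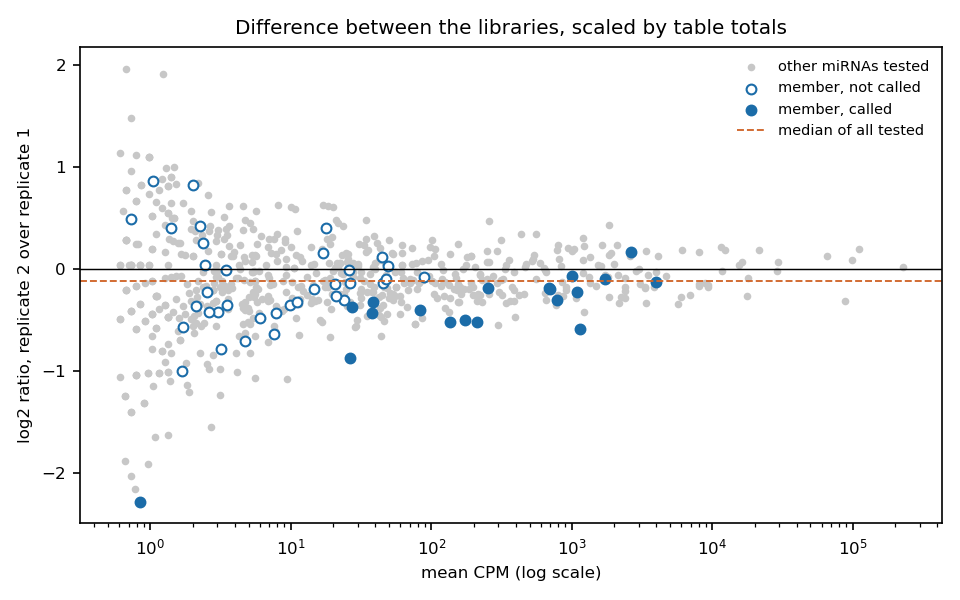
Difference between the libraries for 710 miRNAs tested, scaled by table totals. The x axis is mean CPM on a log scale, the y axis the log2 ratio of replicate 2 over replicate 1, blue circles are the 54 members (filled where called), grey points the other miRNAs, and the dashed line their common median of -0.12. Called members lie below 0 except miR-381-3p at 0.16.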

How the data were processed

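Small RNA of newborn mouse retina was measured in 2 libraries of 1 group. The submitters' processing notes name bcl2fastq 2.17.1.14. For the aligner, counter, trimming and build, nothing is given in the sources used here. The deposited count table holds estimated counts, some of them not whole, and counts were rounded for tests. The deposited CPM values are scaled by a total chosen by the authors. CPM here was recomputed from the table totals. The third deposited table holds most frequent reads as text marked against miRBase 21, per the file headers.

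Levels are means and SD with no test. Neighbouring members were called apart where the log2 ratio (0.5 added to each count) exceeded 2 SD with 1 sign and the exact binomial 95% intervals did not overlap. The second condition was added after the first had been applied and its result seen, because the first called a pair apart at 1.02-fold. Arm use is summarised by the median share of the 3p arm, which replaced a median log2 ratio after values were seen, since arms at 0 made the ratio depend on the added count. Arms were called different where, in both libraries, the exact two-sided binomial test, adjusted by Benjamini-Hochberg over all hairpins compared, gave an adjusted p below 0.05 with the same sign and the mean log2 ratio exceeded 2 SD. Libraries were compared by the same test over all miRNAs with at least 10 counts. Intervals, limits (3 counts for a count of 0) and the p-values of both tests cover counting error only. They hold no variation between libraries, and PCR copies were not collapsed by molecular identifiers. TMM scaling used edgeR 4.0.16, and size factors DESeq2 1.42.0, in R 4.3.3. Other values used Python 3.11.15, SciPy 1.17.1 and pandas 2.3.3. Both tests were checked on simulated counts that held counting error only, so that check did not cover variation between libraries. Hairpins were placed by name on GRCm38.

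Members, lists and thresholds were chosen with earlier results of these data known. Named members are the 20 highest, both arms of hairpins at 100 CPM or more, the 5 most even hairpins, shifted starts, the 5 largest library differences in each direction at 10 CPM or more, members at 0 in both libraries and members sharing a seed. Other members named, the near-copy pairs and the sequence stretches searched were chosen after their values were seen.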

Additional observations from a re-analysis of the deposited data

How the results depend on the processing

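No paired analysis was possible because the series holds 1 group. The share of the cluster was 1.35% by the deposited CPM values, whose columns sum to less than the full scale, and 5.17% with the 10 highest miRNAs taken out of the denominator. Without a library it ranged from 1.45% to 1.60%. Hairpins dominated by the 5p arm numbered 5 at 8-fold, against 11 at 4-fold, and those dominated by the 3p arm 14 against 15. Among the 14, miR-376c, miR-299b and miR-1197 were not shown to reach 8-fold with 3 counts as the limit of a count of 0. Members lower in replicate 2 numbered 11 under TMM scaling and 11 with DESeq2 size factors, against 18 by table totals. Members higher numbered 2 under TMM, 2 with DESeq2 size factors and 2 with a minimum of 100 counts, against 1. The library difference of miR-379-5p became 0.015 under TMM, and that of miR-300-3p 0.047 under TMM and 0.030 with DESeq2 size factors. Members with a shifted start numbered 0 at 100 CPM or more and 10 with no minimum. The rho of level and position was 0.0062 for the sum of both arms, and 0.00026 to 0.0067 without a library. The cause of these changes was not tested. Depth limits the 19 members below 1 CPM, whose order and arm ratios rest on few counts.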
